A study of Mus musculus with 35 samples.

Results

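Hypothalamic RNA of fed mice carrying PER2-S662D, a form of the clock protein PER2 in which an aspartate replaces a serine that can be phosphorylated, was compared with that of fed control mice. The comparison used the 15 libraries whose titles mark them as fed S662D (5) or fed control (10), out of 35 libraries in all, and every gene with enough counts was tested. All 15 came from male mice of strain B6/J, fed ad libitum and sampled at Zeitgeber time 16, which counts hours from lights-on. The 10 controls bore the genotype label Control and the 5 mutants the label PER2-S662D, and both groups ate freely. A block of tissue at hypothalamic coordinates was dissected, polyA RNA was enriched, and paired reads of 150 bases were taken. The other 20 libraries came from mice fasted for 16 hours and sampled at the same Zeitgeber time: 10 control, 5 S662D and 5 labelled as Per2 knockout. The fasted S662D and fasted control libraries served as a second comparison of the same genotypes. Those labelled as knockout were compared with no group here but entered the same fit. The labels give neither the age of the mice nor how the S662D form was introduced, so whether a normal Per2 copy remained is not known here, and they do not state whether each library came from a separate animal. P-values measure only the spread between libraries within groups, estimated over all 35 libraries.

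PER2 is a repressor of the transcription factors CLOCK and BMAL1 (encoded by Clock and Arntl), which drive Per, Cry, Nr1d1, Nr1d2, Dbp, Tef and other genes through DNA motifs named E-boxes. Kinases act on a cluster of serines in PER2 and so set how long the protein lasts and how fast the clock runs. NR1D1 and NR1D2 in turn repress Arntl through ROR response elements, and DBP, TEF and HLF activate genes through D-boxes. The hypothalamus holds the suprachiasmatic nucleus, the central pacemaker, together with neurons of hunger, satiety, water balance and stress, and glia that handle lipids. In bulk tissue, fewer cells of a type and less RNA per cell cannot be told apart.

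Libraries stood apart in 2 ways. Control replicates 1 to 5 and 6 to 10 bore library numbers from separate ranges, and those of the S662D libraries formed a further range, so a difference by genotype cannot be told apart from one by library range. S662D replicates 2, 3 and 4 also carried an additional final digit, whose meaning the sources used here do not give. Depth was 18080903 to 21898438 assigned counts in controls and 18237587 to 37027342 in S662D mice. Genes of hypothalamic neurons were present, with mean levels in fed controls of 107 CPM (counts of a gene over the scaled library total) for Pmch, 97.1 CPM for Hcrt and 123 CPM for Oxt. Markers of choroid plexus, a tissue beside the ventricles, summed to 52.5 to 1018 CPM in controls and 59.2 to 761 CPM in S662D mice, so libraries of both genotypes differed widely in that signal.

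Of 49568 genes, 18063 were tested, and 847 (4.69%) were called at a Benjamini-Hochberg adjusted p below 0.05 by edgeR's quasi-likelihood method. These were 563 genes higher in S662D mice (3.12%) and 284 lower (1.57%). Most differences were small: the median absolute log2 fold change of the called genes was 0.23, and 8 genes differed by more than 2-fold. In 111 of the 847 the 5 S662D libraries all lay above or all below the 10 controls, against 152 such genes (0.841%) among all tested, 74 above (0.410%) and 78 below (0.432%). The count depended on which libraries entered. Controls 1 to 5 alone gave 1741 calls (9.79% of 17775 genes), and controls 6 to 10 alone gave 33 (0.185% of 17812). The 3 S662D libraries with the additional digit gave 3106 calls, whereas the pair without it gave 16. Leaving out S662D replicate 2, 3 or 4 gave 122, 150 and 66 calls, leaving out replicate 1 or 5 gave 1667 and 1612, and leaving out control 3 or 4 gave 511 and 536. Between the control sets themselves 0 genes were called by edgeR, with a lowest adjusted p of 0.114, 2447 genes at an unadjusted p below 0.05, and 97 called by DESeq2. Without control replicate 10 edgeR called 126 between the sets.

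**Figure D1:**
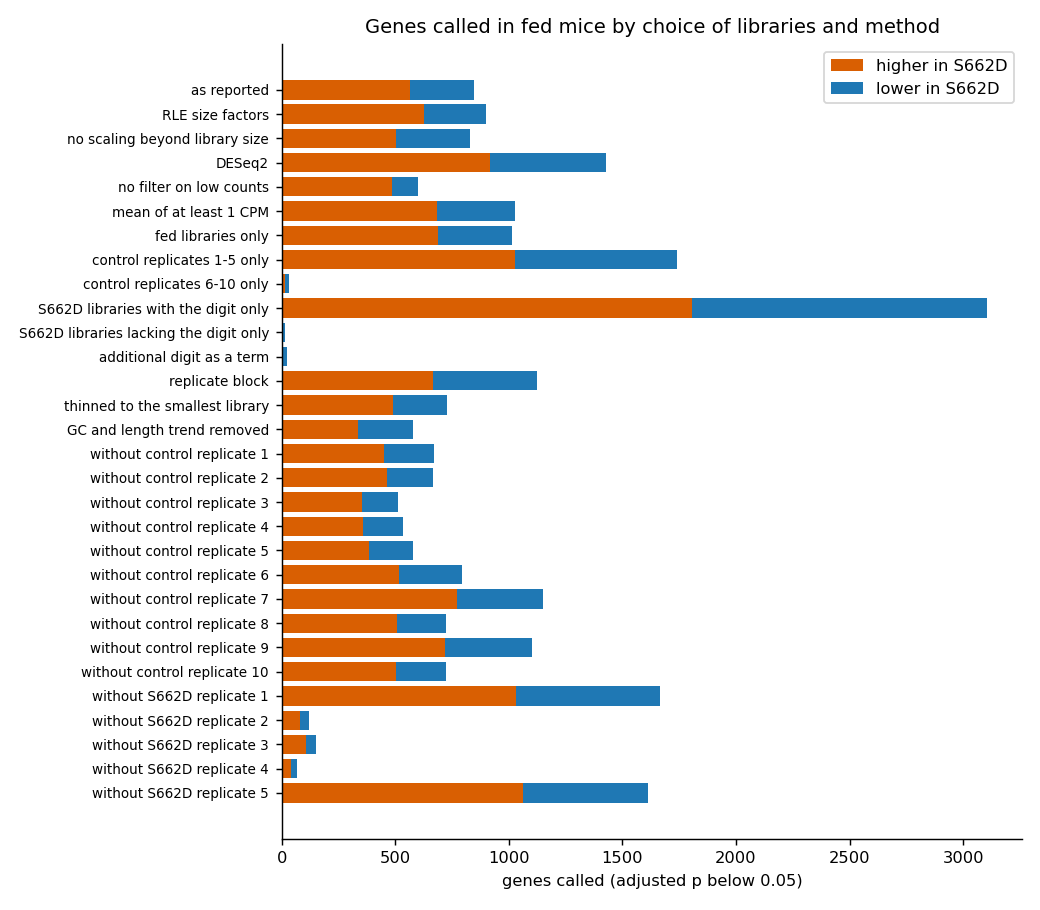
Genes called in fed S662D against fed control mice under each choice of libraries and method. Each bar is a count of genes with an adjusted p below 0.05, split into genes higher and lower in S662D mice. The count is 847 as reported, 1741 with controls 1 to 5 alone, 33 with controls 6 to 10 alone, and 66 without S662D replicate 4.

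A total of 31 genes (0.172%) were called with all controls and with each control set alone, 13 higher (0.0720%) and 18 lower (0.0997%). They included 8 clock genes (Per2, Nr1d2, Per3, Arntl, Cry1, Tef, Ciart and Dbp) and 23 genes outside the clock lists, 11 higher and 12 lower. In fasted mice all 31 had the same sign and 27 were called, where 5.57% of all genes were called. Fasted libraries did not enter the fed means but shared the filter and the estimate of spread behind the fed calls, so that this comparison is not fully independent of the choice. All 31 were also called with the 3 S662D libraries that carry the digit and after a trend with exon length and GC content was removed, 17 with the digit as a term, and 14 with the pair of S662D libraries lacking it. E130012A19Rik and Ptchd2 had no GC value, so only the length trend was removed for them. The plot of the 31 genes gives their estimates by control set. Agreement of the sets in sign was required for the choice, and both were compared with the same S662D libraries. The plot is therefore no separate check.

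**Figure D2:**
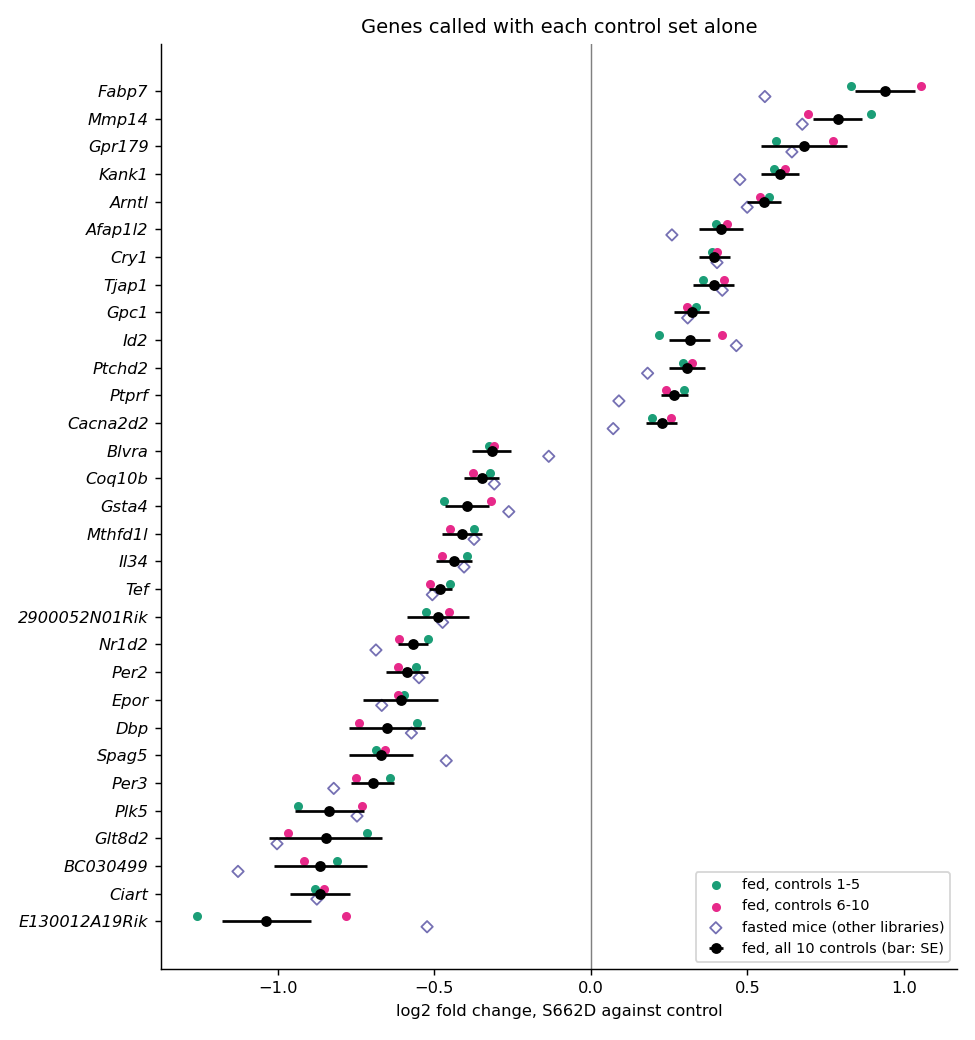
Log2 fold change, S662D against control, of the 31 genes called with each control set alone. Black points with bars are fed mice with all 10 controls and the standard error, coloured points use controls 1 to 5 or 6 to 10, and open diamonds are fasted mice. All 31 diamonds lie on the same side of 0 as the fed estimates, with Fabp7 at 0.94 fed and 0.56 fasted.

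The altered gene itself was lower. Per2 (chromosome 1, 91415982 to 91459324, minus strand, GRCm38) measured 17.3, 20.3, 21.4, 17.9 and 16.9 CPM in S662D replicates 1 to 5, against 25.9 to 32.6 CPM (median 27.9) in controls. The groups did not overlap. Its log2 fold change was −0.59 (adjusted p 1.18e-07, SE 0.068), but counts over a whole gene do not show the changed codon, so they are no check of the genotype labels.

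Nr1d2 encodes a repressor of Arntl. It measured 81.4, 96.4, 98.6, 89.9 and 82.7 CPM in S662D mice and 120.1 to 141.8 CPM (median 133.4) in controls, a log2 fold change of −0.57 (adjusted p 3.20e-11, SE 0.048). Arntl was higher in S662D mice, and whether its level followed from that of Nr1d2 was not tested. It measured 34.8, 33.9, 33.0, 34.7 and 31.4 CPM against 20.1 to 25.1 CPM (median 22.8), a log2 fold change of 0.55 (adjusted p 2.39e-09, SE 0.054). Tef, a D-box activator, measured 217.9, 232.1, 224.9, 225.3 and 212.5 CPM in S662D mice. Controls held 298.4 to 324.9 CPM of it (median 311.0), a log2 fold change of −0.48 (adjusted p 3.44e-12, SE 0.037). None of these groups overlapped, and each of the 4 genes kept its call with either control set alone.

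Among the 14 core clock genes tested, 3 were higher (Arntl, Cry1 and Npas2, the last a partner of BMAL1 at 0.57) and 3 lower (Per2, Per3 at −0.70 and Nr1d2). The list's median was −0.06, against −0.01 over all genes. Per1, Nr1d1, Cry2 and Clock did not pass the test, with log2 fold changes of −0.14, −0.15, 0.07 and 0.12. Of 8 clock output genes, 4 were lower (Tef, Ciart at −0.87, Dbp at −0.65 and Bhlhe40 at −0.20) and 1 higher (Nfil3, a repressor at D-boxes, at 0.34), with a median of −0.16. Npas2, Bhlhe40 and Nfil3 were not among the genes called with each control set alone. With controls 6 to 10 alone Nfil3 had an adjusted p of 0.168 by edgeR. Counts of Ciart and Dbp are uncertain, since 11.9% and 16.2% of their 50-base words occur in transcripts of other genes. Among 17 kinases, phosphatases and ubiquitin ligase subunits that act on PER2 or CRY, 1 was higher: Fbxl21, a ligase subunit for CRY, at 0.27 with an adjusted p of 0.0488. Fbxl21 kept its call in 12 of 29 alternatives, and with controls 6 to 10 alone its adjusted p was 0.487 by edgeR. The casein kinase genes Csnk1d and Csnk1e had values of 0.02 and −0.06, and the list's median was −0.00.

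Outside the clock, Fabp7 had the largest rise of the called genes that averaged 1 CPM or more. Some genes that did not pass had larger estimates, such as the choroid plexus gene Ttr at 1.22 (adjusted p 0.675). Fabp7 encodes the fatty acid-binding protein of astrocytes, tanycytes and neural progenitors, which carries long-chain unsaturated fatty acids, and its transcript is known to cycle over the day in mouse brain. The last 208 bases before the gene's start in the count tables are printed because its transcript moved in the same direction as Arntl, a gene driven through ROR response elements, and this stretch holds 1 match to that element, in capitals (mouse GRCm38.p6, chr10:57784673-57784880, plus strand, from RefSeq).
Fabp7: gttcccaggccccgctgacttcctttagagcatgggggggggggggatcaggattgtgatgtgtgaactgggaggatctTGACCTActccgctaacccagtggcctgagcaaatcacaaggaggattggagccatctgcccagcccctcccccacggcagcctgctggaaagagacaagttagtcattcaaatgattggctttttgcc
The match, TGACCTA on the printed strand, starts 129 bases before that start.

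Fabp7 (chromosome 10, 57784881 to 57788450) measured 18.5, 26.7, 25.2, 24.3 and 23.9 CPM in S662D replicates 1 to 5. Controls held 10.6 to 14.7 CPM, with a median of 11.99. All 5 S662D libraries lay above all 10 controls, including replicate 1, the lowest of them. This gave a log2 fold change of 0.94 (adjusted p 4.31e-09, SE 0.095). With only controls 1 to 5 it was 0.83, and with only controls 6 to 10 it was 1.06. Fasted mice had a smaller value of 0.56 (adjusted p 0.00103, SE 0.098), with groups that overlapped. The fed and fasted values differed by 0.38 with an unadjusted p of 0.00829, which adjustment over all genes took to 0.762, so that difference was not shown.

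No other member of its family passed the test. Of 6 fatty acid-binding and retinoid-binding protein genes tested, Fabp7 alone was called, and Fabp5 and Fabp3 had log2 fold changes of −0.17 and −0.03. The list's median was −0.00. Cell types that express Fabp7 gave few calls. Of 14 astrocyte markers 1 was higher, Sox9, a transcription factor of astrocytes and progenitors, at 0.26, and their median was −0.02. Sox9 kept its call in 18 of 29 alternatives, and not with controls 6 to 10 alone. Astrocyte markers summed to 4221 to 4492 CPM in S662D mice and 4231 to 4482 CPM in controls. Of 13 tanycyte markers 0 were higher and 1 was lower, Adm, which encodes the peptide adrenomedullin, at −0.57. Adm kept its call in 16 of 28 alternatives, and was also lost with controls 6 to 10 alone. Of the 13 estimates 8 were above 0, and the median was 0.15, with 0.27 and 0.10 against controls 1 to 5 and 6 to 10. Their summed level was 141.4 to 169.7 CPM against 132.8 to 163.9 CPM. The part of these cells in the rise of Fabp7 was not tested.

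Mmp14 and Kank1, like Fabp7, kept their call in all 29 alternatives run. Mmp14 encodes a membrane-anchored metalloproteinase that cleaves matrix and activates other metalloproteinases, and Kank1 an adaptor that links adhesion sites to the actin and microtubule cytoskeleton. Their upstream stretches (GRCm38.p6, RefSeq, chr14:54431348-54431597 and chr19:25236725-25236974, both plus strand) are shown beside that of Fabp7 because they hold none of the 3 motifs searched.
Mmp14: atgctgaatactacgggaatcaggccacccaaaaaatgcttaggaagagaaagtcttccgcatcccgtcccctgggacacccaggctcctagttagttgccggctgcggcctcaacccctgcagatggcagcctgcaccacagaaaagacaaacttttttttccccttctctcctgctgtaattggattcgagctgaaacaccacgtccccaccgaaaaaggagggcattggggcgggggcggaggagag
Kank1: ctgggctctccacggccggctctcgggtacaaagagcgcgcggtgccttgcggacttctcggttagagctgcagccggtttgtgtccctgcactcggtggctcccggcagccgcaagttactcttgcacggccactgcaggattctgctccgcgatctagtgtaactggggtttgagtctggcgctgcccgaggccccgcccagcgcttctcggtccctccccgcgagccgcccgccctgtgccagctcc
No letters are capitalised, since no match was found in these windows.

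Mmp14 (chromosome 14, 54431612 to 54441265) measured 20.0, 26.9, 26.1, 26.4 and 24.9 CPM in S662D mice, against 12.2 to 16.8 CPM (median 14.5) in controls. The groups did not overlap, and replicate 1 was again the lowest mutant library. The log2 fold change was 0.79 (adjusted p 2.55e-09, SE 0.079), with 0.90 against controls 1 to 5 alone, 0.69 against controls 6 to 10 alone and 0.67 in fasted mice, where the groups did not overlap either. Kank1 (chromosome 19, 25236975 to 25434496) measured 36.6, 42.7, 44.1, 45.5 and 39.6 CPM against 24.2 to 29.7 CPM (median 27.3). Its 5 mutant libraries also lay above every control. The log2 fold change was 0.60 (adjusted p 2.55e-09, SE 0.060), and 0.48 in fasted mice, again without overlap.

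**Figure D3:**
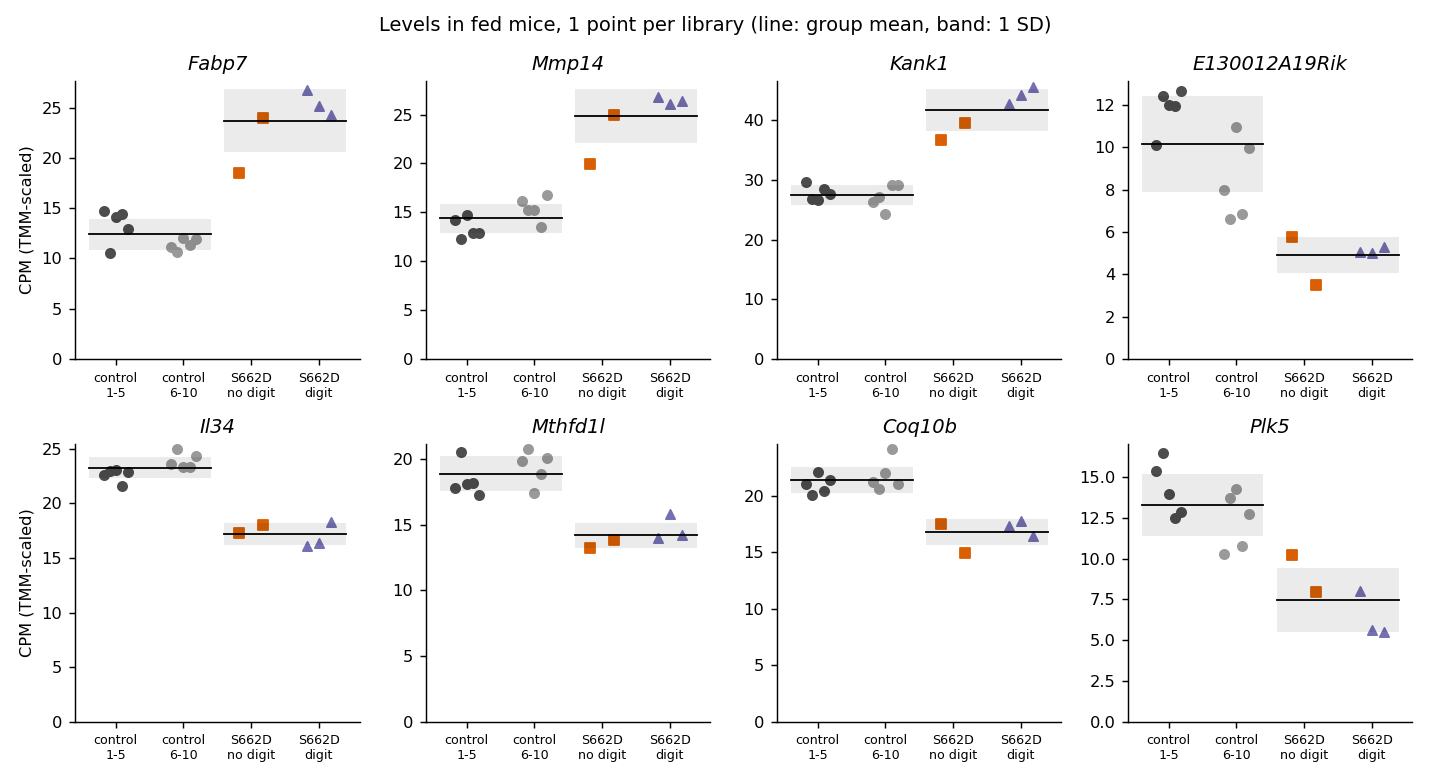
Levels of 8 genes outside the clock in fed mice, in CPM scaled by TMM, with 1 point per library, the group mean as a line and 1 SD as a band. Control replicates 1 to 5 and 6 to 10, and S662D libraries by presence of the additional digit, are drawn apart. In all 8 the S662D libraries lie apart from the controls, most narrowly for Plk5, whose highest S662D library (10.2 CPM) sits just under the lowest control (10.3 CPM).

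The remaining rises that held with each control set were smaller and spread over several functions. Gpr179, Afap1l2, Tjap1, Ptprf, Ptchd2, Gpc1 and Id2 each lost their call with the pair of S662D libraries lacking the digit. All of these but Tjap1 also lost it with the digit as a term. Gpr179, an orphan receptor known from the retina, measured 5.82, 5.80, 5.19, 7.78 and 5.69 CPM against 3.01 to 4.51 CPM (median 4.00) in controls. The groups did not overlap, and the log2 fold change was 0.68 (adjusted p 0.00414, SE 0.14). Without S662D replicate 4, the highest library, it was 0.57 with an adjusted p of 0.0642, past the threshold no longer. Afap1l2, an adaptor of the actin cytoskeleton, followed at 0.42 (SE 0.070), with S662D libraries between 12.2 and 16.2 CPM and controls between 9.89 and 11.9 CPM. Tjap1, a tight junction-associated protein, stood at 0.39 (SE 0.065), with 23.9 to 29.4 CPM against 15.2 to 21.8 CPM.

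Ptprf, the receptor tyrosine phosphatase LAR of axons and synapses, measured 130.9, 138.4, 137.6, 151.7 and 126.5 CPM against 107.2 to 122.4 CPM (median 112.8). These groups did not overlap either, although the log2 fold change was only 0.27 (adjusted p 1.39e-04, SE 0.042). In fasted mice it was 0.09 with an adjusted p of 0.214. The other 3 of the 31 genes that did not pass there were Cacna2d2, a calcium channel subunit (0.23 fed and 0.07 fasted), Ptchd2 and Blvra. Ptchd2, which has a sterol-sensing domain, was higher by 0.31 (0.18 fasted, adjusted p 0.0512) and Gpc1, the heparan sulfate proteoglycan glypican-1, by 0.32, both with groups that overlapped. Gpc1 lies near Per2 on chromosome 1 and shares 18.9% of its exon bases with another gene, so its counts are uncertain. Id2, an inhibitor of helix-loop-helix transcription factors, measured 47.0, 52.3, 55.1, 56.7 and 56.3 CPM against 37.5 to 50.6 CPM (median 43.4). Its control sets differed, with values of 0.22 and 0.42 against controls 1 to 5 and 6 to 10, and its fasted value was 0.46 without overlap. Without S662D replicate 4 the fed value was 0.29 with an adjusted p of 0.0515.

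Among the genes lower in S662D mice, 4 outside the clock kept their call in all 29 alternatives run: E130012A19Rik, Il34, Mthfd1l and Coq10b. With Fabp7, Mmp14, Kank1 and 7 clock genes (Per2, Nr1d2, Tef, Arntl, Per3, Ciart and Cry1) they make up the 14 genes that did so. E130012A19Rik (chromosome 11, 97627389 to 97629702) measured 5.77, 5.05, 5.02, 5.30 and 3.51 CPM against 6.61 to 12.7 CPM (median 10.55). All 5 mutant libraries lay below all controls. Its log2 fold change was −1.04 (adjusted p 1.52e-05, SE 0.14), and its controls differed between sets, with 10.1 to 12.7 CPM in replicates 1 to 5 and 6.61 to 10.98 CPM in replicates 6 to 10. The value was −1.25 against the first set and −0.78 against the second.

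Il34 encodes a neuron-derived ligand of the receptor CSF1R, on which microglia depend. It measured 17.2, 16.1, 16.3, 18.3 and 18.04 CPM in S662D mice and 21.6 to 25.0 CPM (median 23.2) in controls, again without overlap. The log2 fold change was −0.44 (adjusted p 2.47e-06, SE 0.057), with −0.39 and −0.48 against the control sets and −0.41 in fasted mice. Its receptor gene Csf1r did not pass the test, at 0.08 with an adjusted p of 0.459. None of 12 microglia markers was called by edgeR. The other 11 had estimates below 0, the lowest at −0.29, and the list's median was −0.08, with −0.11 and −0.10 against the control sets. Their summed level was 307.1 to 332.4 CPM in S662D mice and 309.0 to 352.8 CPM in controls.

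Coq10b and Mthfd1l encode mitochondrial proteins, a coenzyme Q-binding protein needed for respiration and an enzyme of folate-dependent one-carbon metabolism. Their upstream stretches are printed with that of Ciart, a clock output gene that also fell, because the 3 differ in the motifs they hold. Capitals mark E-boxes (CACGTG) and, in Coq10b, also a D-box (TTACATAA on the printed strand). The windows are chr1:55052520-55052769 (plus strand), chr10:3972825-3973074 (plus strand) and chr3:95882252-95882478 (minus strand) of GRCm38.p6, from RefSeq.
Coq10b: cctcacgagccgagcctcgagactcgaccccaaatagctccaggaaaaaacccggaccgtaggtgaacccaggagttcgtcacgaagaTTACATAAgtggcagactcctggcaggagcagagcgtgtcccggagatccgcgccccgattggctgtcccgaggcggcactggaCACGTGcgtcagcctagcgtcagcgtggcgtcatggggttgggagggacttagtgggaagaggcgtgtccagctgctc
Mthfd1l: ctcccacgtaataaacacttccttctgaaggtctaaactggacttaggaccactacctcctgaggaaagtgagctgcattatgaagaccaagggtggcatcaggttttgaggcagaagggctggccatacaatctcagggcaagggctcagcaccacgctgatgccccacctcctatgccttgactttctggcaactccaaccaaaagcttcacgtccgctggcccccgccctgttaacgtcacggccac
Ciart: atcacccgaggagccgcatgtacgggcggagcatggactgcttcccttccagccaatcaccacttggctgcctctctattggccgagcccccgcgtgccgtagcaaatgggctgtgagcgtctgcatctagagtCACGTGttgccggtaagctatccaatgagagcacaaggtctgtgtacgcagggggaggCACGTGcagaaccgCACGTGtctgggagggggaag
The D-box of Coq10b starts 162 and its E-box 78 bases before the gene start. Ciart has E-boxes at 93, 35 and 21 bases, and Mthfd1l has none of the motifs.

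Coq10b (chromosome 1, 55052770 to 55072702) measured 17.5, 17.3, 17.8, 16.4 and 14.9 CPM against 20.1 to 24.1 CPM (median 21.1) in controls. The mutant libraries lay below every control. Its log2 fold change was −0.35 (adjusted p 1.91e-04, SE 0.056), and −0.31 in fasted mice, without overlap there as well. Mthfd1l (chromosome 10, 3973118 to 4167081) measured 13.2, 14.01, 15.8, 14.2 and 13.8 CPM against 17.2 to 20.8 CPM (median 18.5). There was no overlap in fed mice, and in fasted mice the groups overlapped. The log2 fold changes were −0.41 (adjusted p 1.00e-04, SE 0.064) fed and −0.37 fasted.

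The other 8 falls that held with each control set did not keep every call. All but Plk5 and Spag5, which lost it in 1 alternative each, lost it in at least 2, and each was lost with the pair of S662D libraries lacking the digit. Plk5, of the polo-like kinase family, measured 10.2, 7.99, 5.63, 5.48 and 7.98 CPM against 10.3 to 16.5 CPM (median 13.3), or −0.84 on the log2 scale (adjusted p 3.31e-06, SE 0.11). Spag5, a protein of the mitotic spindle, stood at −0.67 (adjusted p 5.56e-05, SE 0.10). BC030499 lies next to Spag5 on chromosome 11 (78290841 to 78296805, with Spag5 at 78301529 to 78322457) and was lower by −0.86 fed and −1.13 fasted, with no overlap in either state.

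Epor, the erythropoietin receptor, measured 2.19 to 2.93 CPM in S662D mice and 3.01 to 4.92 CPM in controls, a log2 fold change of −0.61 (adjusted p 0.00305, SE 0.12). Glt8d2, a glycosyltransferase of low level here, stood at −0.85 fed with groups that overlapped and −1.002 fasted with groups that did not. Of the genes for detoxifying enzymes, Gsta4, a glutathione transferase for lipid peroxidation products, was lower by −0.39 and Blvra, which reduces biliverdin to bilirubin, by −0.32 (−0.13 fasted, adjusted p 0.190). The long non-coding RNA 2900052N01Rik was lower by −0.49 fed and −0.47 fasted.

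The 3 motifs were searched on both strands in the 250 bases before the RefSeq start of each gene with a promoter there, which for Fabp7 and Ciart reach into the gene as counted (that end is not printed): E-box CACGTG, ROR element TAGGTCA or TGGGTCA, and D-box TTATGTAA or TTACGTAA. Of 12294 tested genes with such a stretch, 9.35% held an E-box, 5.36% an ROR element and 0.805% a D-box. Genes called higher held an E-box in 40 of 415, an ROR element in 24 and a D-box in 2. Those called lower held an E-box in 19 of 203, an ROR element in 4 and a D-box in 6. Of the genes called with each control set, E-boxes were found in Cry1, Tef, Ciart and Coq10b, D-boxes in Per3 and Coq10b, and an ROR element in Fabp7. Such a match is a description of the sequence and not a binding site.

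Several of the largest fold changes did not hold with controls 6 to 10 alone. Aox4, an aldehyde oxidase, measured 1.52, 1.62, 3.26, 1.86 and 1.27 CPM against 0.424 to 1.48 CPM (median 0.972), a log2 fold change of 0.94 (adjusted p 0.0123, SE 0.22). Its groups overlapped. Oasl2, an interferon-induced gene, measured 6.17, 5.07, 7.12, 6.09 and 6.91 CPM against 2.54 to 4.93 CPM (median 3.62). Its groups did not overlap, and it was higher by 0.75 (adjusted p 0.00275, SE 0.15), a value nearer to 0 against controls 6 to 10 (0.54) than against controls 1 to 5 (0.9999). It was the only called gene of 19 in the interferon and antigen presentation list, whose median was 0.05. Cd248, a marker of perivascular and meningeal fibroblasts, was higher by 0.73, Frem2, of the extracellular matrix, by 0.71 and Gucy2f, a retinal guanylate cyclase, by 0.76. Their groups overlapped, as did those of the pseudogene Rpl28-ps1 (0.64), all of whose 50-base words also occur in transcripts of other genes. Cd248 was not called with controls 1 to 5 alone either (adjusted p 0.11 by edgeR).

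Rln3, the peptide relaxin-3 made in the nucleus incertus of the brainstem and known to stimulate feeding, had the largest fall on the log2 scale. It measured 1.21, 0.324, 0.221, 0.358 and 0.457 CPM in S662D mice and 0.260 to 3.59 CPM (median 1.23) in controls, so the groups overlapped widely. The log2 fold change was −1.83 (adjusted p 0.0460, SE 0.54), with −2.44 for controls 1 to 5 and −0.80 for controls 6 to 10, and the call was kept in 13 of 28 alternatives. In fasted mice the value was 0.55 and did not pass. The 8 markers of nucleus incertus and midbrain summed to 41.1 to 196.6 CPM in S662D mice and 57.8 to 199.2 CPM in controls. Of the 6 tested, Rln3 alone was called, and their median was −0.47, with −0.83 and −0.13 for the control sets in that order. The part of tissue from those regions in the fall of Rln3 was not tested.

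The other large falls were in genes of low level and little known function. BC039966, an antisense transcript, was lower by −0.92 and kept its call in 25 of 28 alternatives. BC049352 (−0.88), Gm37308 (−0.86), Gm37691 (−0.78) and 2010015M23Rik (−0.77) lost theirs in 6 to 16 of 28. Gm37308 is a pseudogene whose words all occur elsewhere, so its counts are uncertain.

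Apart from Mmp14, Gpc1 and the clock genes, the genes called from here on were not called with controls 6 to 10 alone, and most lost their call when 1 library was left out. Of the 81 genes chosen for naming, the call ended in 47 without S662D replicate 4, in 41 without replicate 2, in 40 without replicate 3, in 3 without replicate 5 and in 0 without replicate 1, and leaving out 1 control ended it in 1 to 17. Removing the trend with exon length and GC content ended it in 17. The lists are read against the 3.12% and 1.57% of all genes called higher and lower. All calls among genes of extracellular matrix turnover were higher. Of 22 metalloproteinases and inhibitors tested, 4 were higher (Mmp14, Mmp15 at 0.23, the inhibitor Timp3 at 0.22 and Adamts1 at 0.28) and 0 lower, with a median of 0.13 (0.17 by controls 1 to 5, 0.12 by controls 6 to 10). Timp3 is uncertain, with 21.3% of its exon bases inside another gene. Adamts1 had a fasted value of −0.03, and the fasted median of the list was 0.05. Of 31 collagen and basement membrane genes, 3 were higher (Hspg2, which encodes perlecan, at 0.55, Lamb2, a laminin chain, at 0.27 and Col4a1, a collagen of vessel walls, at 0.20) and 0 lower, with a median of 0.14. In fasted mice the median of that list was −0.03, with 2 genes higher and 1 lower. Lamb2 and Col4a1 were not called in fed mice with controls 1 to 5 alone either, at adjusted p of 0.0586 and 0.133 by edgeR. With the trend in exon length and GC content removed, Mmp14 alone of these 7 genes kept its call, and Mmp15, Timp3, Adamts1, Hspg2, Lamb2 and Col4a1 had adjusted p of 0.0519 to 0.256. Hspg2 measured 7.44, 14.4, 13.97, 12.6 and 7.42 CPM against 6.26 to 8.75 CPM (median 7.73). The 3 libraries with the digit lay above all controls, and replicates 1 and 5 lay within the control range.

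Vessel and fibroblast markers stood as follows beside these genes. Of 11 endothelial markers, 3 were higher (Kdr at 0.44, Cldn5 at 0.31 and Flt1 at 0.28, the VEGF receptors and a tight junction protein) and 1 lower (Ly6c1 at −0.38, uncertain since 32.8% of its words occur elsewhere). Their median was 0.06, and their summed level was 326.8 to 368.6 CPM in S662D mice and 322.3 to 363.7 CPM in controls. Pericyte and smooth muscle markers had 1 of 9 higher (Cspg4) with a median of 0.13, summing to 169.3 to 216.7 CPM against 161.6 to 188.2 CPM. Leptomeningeal fibroblast markers had 1 of 12 higher (Cd248) with a median of 0.20, summing to 80.8 to 148.5 CPM against 71.3 to 156.7 CPM. Choroid plexus markers had 0 of 11 called, with a median of 1.12 fed and −1.22 fasted, and ependymal markers 0 of 9, with a median of 0.13. With the length and GC trend removed, Kdr, Flt1 and Cspg4 were no longer called, at adjusted p of 0.0747, 0.109 and 0.0793. The part of these cells in the matrix genes was not tested.

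In the oligodendrocyte lineage, calls among precursor markers were all higher and those among oligodendrocyte markers all lower. Of 10 precursor markers 3 were higher: Gpr17, a receptor of differentiating precursors, at 0.38, Cspg4, the proteoglycan NG2, at 0.40 and Pdgfra, the PDGF receptor of precursors, at 0.27. Gpr17 measured 55.8, 63.5, 68.8, 68.8 and 60.1 CPM against 43.9 to 52.4 CPM (median 49.3). Its groups did not overlap, with an adjusted p of 4.93e-04, and the call was kept in 26 of 29 alternatives but not with controls 6 to 10 alone. The list's median was 0.18, with 0.17 and 0.19 against the control sets, and 0.28 in fasted mice, where 6 of the 10 were called higher. Of 12 oligodendrocyte markers, 2 were lower, among them the myelin gene Mobp at −0.21, whose groups overlapped. Their median was −0.11, with −0.19 and −0.02 against controls 1 to 5 and 6 to 10 and 0.04 in fasted mice. The oligodendrocyte markers summed to 8145 to 8650 CPM in the S662D libraries with the digit, 9428 to 9653 CPM in those without it and 8162 to 10880 CPM in controls. Neuron markers had 1 of 10 higher, the synaptic vesicle gene Syn1 at 0.22, and a median of 0.01.

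**Figure D4:**
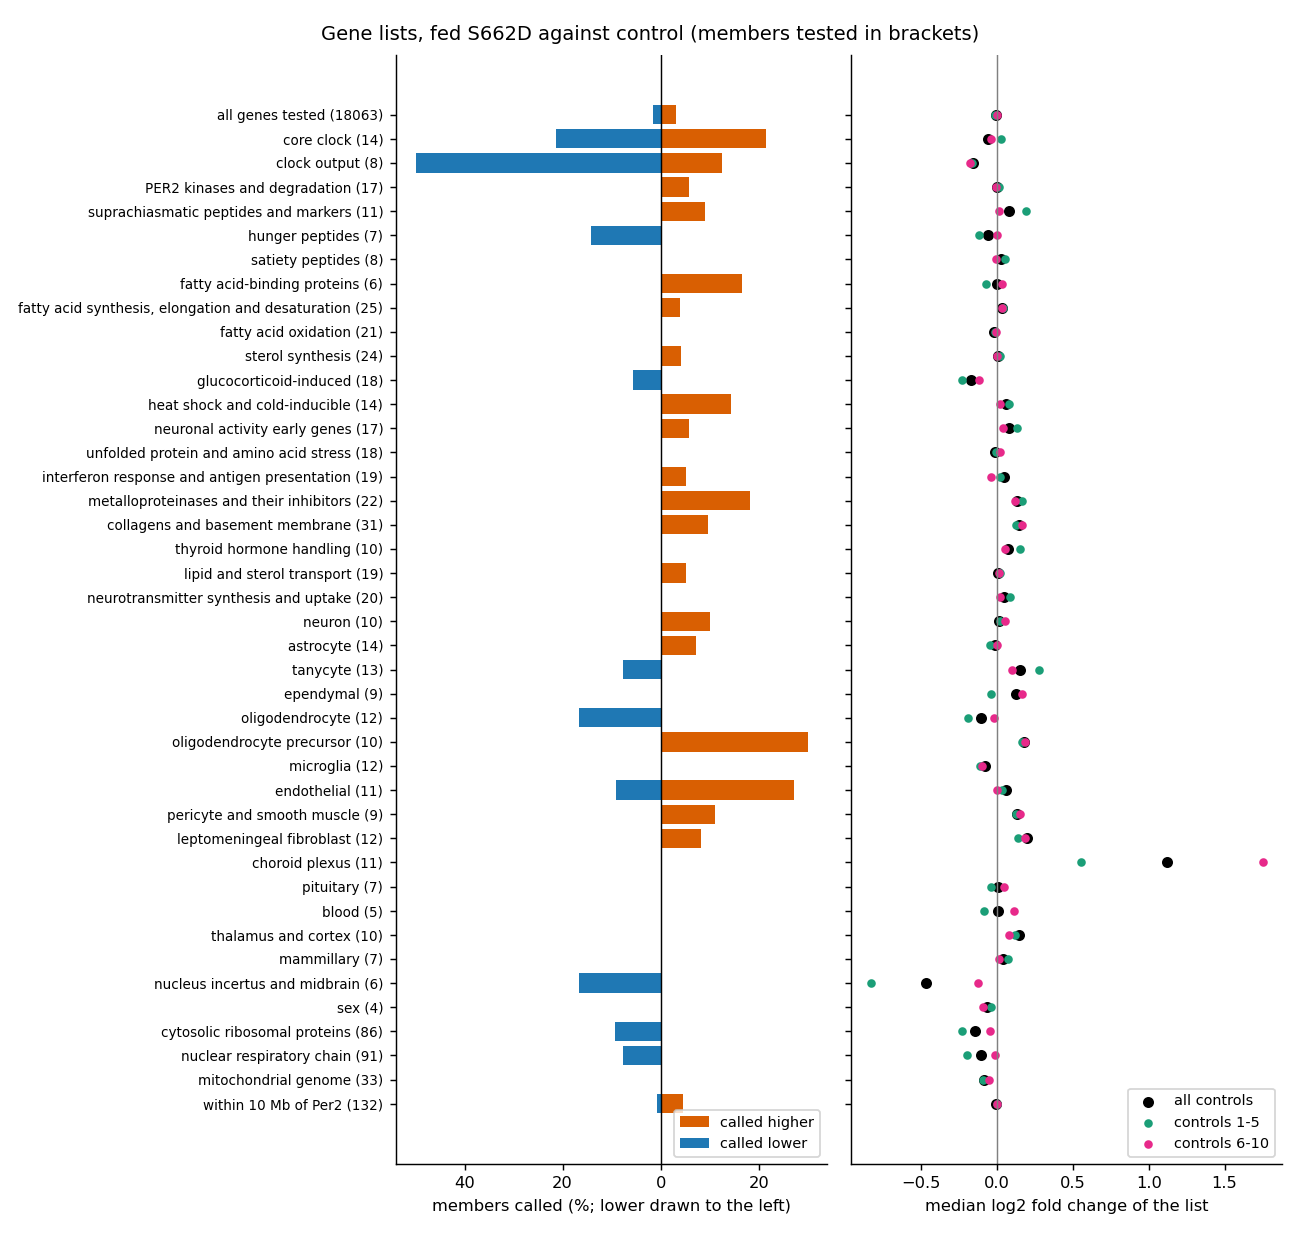
Gene lists in fed S662D against control mice. The left panel gives the share of tested members called higher or lower in percent, and the right panel the median log2 fold change with all controls and with each control set. The largest share in 1 direction is that of clock output genes, 50% of which were lower, and the choroid plexus median ranges from 0.55 to 1.75 with the control set.

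Lipid genes other than Fabp7 gave 3 calls. Of 25 genes of fatty acid synthesis, elongation and desaturation, Fasn, the fatty acid synthase, was called at 0.32 (adjusted p 0.00133, SE 0.058). It measured 360.3, 432.8, 427.0, 455.8 and 350.8 CPM against 293.0 to 373.9 CPM (median 327.1), so the libraries with the digit lay above all controls and those without it within their range. The desaturase genes Scd1, Fads1 and Fads2 had values of 0.00, 0.02 and 0.05 and did not pass, and the list's median was 0.03. None of 21 fatty acid oxidation genes was called by edgeR, with a median of −0.02 and 0.08 for Cpt1a, the gate of mitochondrial import. In sterol synthesis 1 of 24 was higher (Srebf2, the master regulator of that pathway, at 0.17) and the median was 0.01. In lipid and sterol transport 1 of 19 was higher (Lrp1, a receptor for apolipoprotein E, at 0.30) and the median was 0.01.

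Feeding and pacemaker genes gave 2 calls. Of 7 hunger genes Rln3 alone was called, and of 8 satiety genes 0, with medians of −0.06 and 0.03. Agrp and Npy stood at 0.16 and −0.06, Pmch and Hcrt at −0.32 and −0.30 (adjusted p 0.118 and 0.0836), and Pomc and Cartpt at −0.11 and −0.39. The 8 hunger genes summed to 148.6 to 205.2 CPM in the S662D libraries with the digit, 217.7 CPM or more in those without it and 222.8 to 274.2 CPM in controls, so the sums with the digit lay below every control. Of 11 suprachiasmatic genes, 1 was higher, Syt10, a synaptotagmin of that nucleus, at 0.43. Avp and Vip, its peptides, stood at 0.09 and 0.03. The neuropeptide gene Grp was at −0.56 with an adjusted p of 0.0506, short of the threshold. Transmitter genes had 0 of 20 called (median 0.05) and thyroid hormone genes 0 of 10 (median 0.07).

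Stress and activity genes gave a few calls. Of 18 glucocorticoid-induced genes 1 was lower, Tsc22d3, the anti-inflammatory protein GILZ. It measured 101.4, 92.5, 103.4, 104.0 and 98.0 CPM against 116.2 to 145.8 CPM (median 126.4) and the groups did not overlap. The log2 fold change was −0.37 (adjusted p 0.0241, SE 0.097), with −0.45 against controls 1 to 5, −0.29 against controls 6 to 10 and −0.08 in fasted mice. The list's median was −0.17, and 0.01 fasted, and Sgk1 stood at −0.54 without passing. Of 14 heat shock and cold-inducible genes, 2 were higher: Bag3, a chaperone partner, at 0.44, and Hspa1a at 0.53, which is uncertain because 66.3% of its words occur in other genes. Of 17 neuronal activity genes 1 was higher, Fosl2, of the AP-1 family, at 0.42, with a list median of 0.08. Unfolded protein and amino acid stress genes had 0 of 18 called and a median of −0.01.

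All calls among ribosome and respiratory chain genes were lower. Of 86 cytosolic ribosomal protein genes, 8 were lower and 0 higher, with a median of −0.14 that was −0.23 against controls 1 to 5, −0.05 against controls 6 to 10 and −0.01 in fasted mice. Rpl6, for example, measured 382.1, 302.3, 307.2, 304.0 and 373.1 CPM against 361.6 to 398.6 CPM (median 384.3). Replicates 1 and 5, which lack the digit, lay within the control range. Rpl7, Rps4x, Rpl17 and Rpl6 were lower by −0.21, −0.21, −0.23 and −0.19 (−0.26, −0.24, −0.28 and −0.22 against controls 1 to 5, and −0.16, −0.18, −0.17 and −0.17 against controls 6 to 10), and all are uncertain because other genes or pseudogenes share their sequence. Of 91 nuclear respiratory chain genes, 7 were lower and 0 higher, with a median of −0.10 that was −0.20 and −0.02 against the control sets. They included Ndufaf7 at −0.25 and Ndufa9 at −0.18, of complex I. The 33 transcripts of the mitochondrial genome gave 0 calls and a median of −0.08.

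Genes around Per2 on chromosome 1 were counted apart. Of 132 genes tested within 10 Mb of Per2, 6 were higher and 1 lower, with a median of −0.01. Kif1a, a motor of synaptic vesicle transport, was higher by 0.21, Irs1, an insulin receptor substrate, by 0.43 (uncertain, with 30.9% of its exon bases in another gene) and Gpc1 by 0.32. Ncl, which encodes nucleolin, was lower by −0.23.

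Calls followed exon length. The median summed exon length was 3628 bases over all tested genes, 6632 over those called higher and 2967 over those called lower. In the shortest decile of genes 0.221% were called higher and 1.27% lower, and in the longest decile 9.57% and 0.664%. Each library's own trend was measured as the median log2 level of the longest decile minus that of the shortest, relative to the control mean. It was 0.232, 0.218 and 0.272 in S662D replicates 2, 3 and 4, but −0.02 and −0.04 in replicates 1 and 5. Controls 1 to 5 lay between −0.163 and −0.0368, and controls 6 to 10 between −0.0464 and 0.231. The trend thus moved with the additional digit and the control set, and its part in the calls was not tested beyond removing a smooth trend, after which 578 genes were called, 398 of them among the 847. The 31 genes had a median length of 5450 bases where higher and 3766 where lower.

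**Figure D5:**
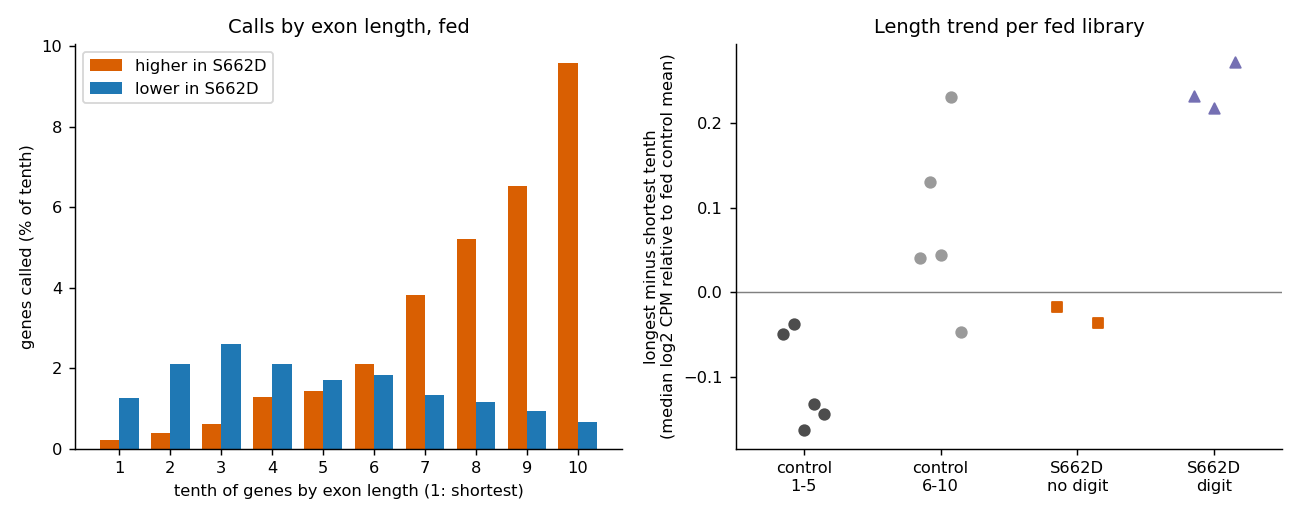
Left, percent of genes called higher or lower in fed S662D mice in each decile of genes by exon length, from the shortest (1) to the longest (10). Right, the length trend of each fed library, as the median log2 CPM of the longest decile minus the shortest, relative to the fed control mean. Calls of higher genes climb from 0.221% to 9.57%, and the 3 S662D libraries with the digit have trends of 0.218 to 0.272.

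Fasted mice gave a second comparison of the genotypes from other libraries, which bear the same division of library numbers. Of 18063 genes 1007 (5.57%) were called there, 605 higher (3.35%) and 402 lower (2.23%). Of the 847 genes called in fed mice 801 had the same sign in fasted mice and 268 were called there. The 268 are 31.6% of the 847 and 26.6% of the 1007. The share of same signs over all tested genes is not given here, so the 801 have no background beside them. A test of the difference between the fed and fasted genotype effects called 0 genes by edgeR and 0 by DESeq2, with 1151 genes at an unadjusted p below 0.05 and a lowest adjusted p of 0.762. With controls 1 to 5 alone that test called 486 genes, and with controls 6 to 10 alone 0. A gene called in 1 feeding state alone is not shown by the test with all controls to differ between the states.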

How the data were processed

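PolyA RNA of 15 fed hypothalamus libraries (10 control, 5 PER2-S662D) was analysed, with the other 20 libraries of the series in the same fit. The authors deposited raw counts per gene, per the file headers made with featureCounts 2.0.1 on the GENCODE vM12 annotation of mm10, grouped by symbol, counting multi-mapping reads at each of their alignments and setting no strand option. Per the submitters' processing notes, reads were aligned with STAR 2.7.10b. Counting every alignment inflates genes with close copies, and counting without strand adds antisense reads.

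Genes were kept with filterByExpr (minimum count 10) and scaled with TMM, and all 35 libraries entered 1 edgeR 4.0.16 quasi-likelihood fit in R 4.3.3 (common biological coefficient of variation 0.0900), which was tested on simulated counts. The main contrast used 1 mean for all 10 fed controls, with no term for the control sets. A separate fit gave control replicates 1 to 5 and 6 to 10 a mean each. Adjustment was by Benjamini-Hochberg over 18063 genes at 0.05. CPM are TMM-scaled, and the SE comes from the F statistic. Depth was 18080903 to 37027342 counts in the fed libraries, and no pair agreed within sampling noise (lowest chi-square per degree of freedom 2.53). The genes named are Per2, Nr1d2, Tef, Arntl and Fabp7, the 10 largest rises and falls among called genes outside the clock with a mean of at least 1 CPM and the same sign against both control sets, up to 30 genes called with each control set alone, and up to 4 called members of each list. Cacna2d2, Npas2, Bhlhe40 and genes given as not called fall outside that rule and were chosen after their values were seen. Counts are called uncertain for genes that share 10% or more of their exon bases or 50-base words with another gene (15 of 81). E130012A19Rik and Ptchd2 had no matched transcript to take words from, so only their exon overlap was checked. Members, lists and the rule were chosen with earlier results of these data known. Alternatives were other scalings, DESeq2 1.42.0, other filters, subsets of libraries, the additional digit as a term, a replicate block, thinning to the smallest library and, chosen after seeing the data, removal of a lowess trend with exon length and GC. Same-numbered fed control and S662D libraries deviated together with correlations of 0.17, 0.33, −0.04, −0.13 and 0.19, so the numbers do not pair them. Promoters are from RefSeq (GRCm38.p6), with which 62 of the 81 genes matched, and gene coordinates are those of the count tables. The values of 1 named gene are not reported here.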

Additional observations from a re-analysis of the deposited data

Results flagged for a closer look

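In 8 of 162 groups of libraries, 1 library of a named gene lay far from the rest of its group, judged by its gap to the nearest other library over the range of the group. Chance gives about 1 in 20 such groups. Among S662D mice, replicate 1 was low for Mmp14 (20.0 CPM, against 24.9 to 26.9 in the others) and high for Rln3 (1.21 CPM against 0.221 to 0.457). Replicate 4 was high for Gpr179 (7.78 CPM against 5.19 to 5.82), and replicate 3 was high for Ciart (8.78 CPM against 5.73 to 6.25). Among controls, replicate 9 was high for Per2 (32.6 CPM against 25.9 to 29.4) and for Coq10b (24.1 CPM against 20.1 to 22.1). Control replicate 10 was low for Tjap1 (15.2 CPM against 19.4 to 21.8), and replicate 8 was low for Gm37308 (1.12 CPM against 1.43 to 1.64).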

How the results depend on the processing

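The fed count of 847 calls became 1426 with DESeq2, 1741 with controls 1 to 5 only, 33 with controls 6 to 10 only, 3106 with the S662D libraries carrying the digit, 16 with those lacking it and 23 with the digit as a term. Leaving out 1 library gave 66 (without S662D replicate 4) to 1667 (without S662D replicate 1), with 122 without replicate 2, 150 without replicate 3, 1612 without replicate 5, and 511 and 536 without controls 3 and 4. Other scalings, filters and thinning gave 601 to 1029 calls, and removing the exon length and GC trend, an alternative chosen after seeing the data, gave 578. The share of calls that were higher moved from 66.5% to 81.0% with no filter, 45.5% with controls 6 to 10, 31.2% in libraries lacking the digit and 30.4% when it was a term. A replicate block gave 1124 calls and ended those of 5 of the 81 named genes, but the pairing is by number only, as 1 of 5 S662D libraries correlated best with its own number. The fasted count of 1007 became 1680, 48, 3148, 21 and 20 with controls 1 to 5, controls 6 to 10, the digit, no digit and a digit term, and leaving out 1 fed library gave 940 to 1061. The fed and fasted difference (0 calls) gave 486 with controls 1 to 5, 9 with the digit and 0 to 0 with 1 fed library left out. Between control sets (0 calls) there were 2 without scaling, 97 with DESeq2, 2 with no filter, 43, 110 and 99 with the digit, no digit and a digit term, 1 with the trend removed, and 0 to 126 (without control 10) with 1 library left out. In libraries lacking the digit, the signs of Hspg2 (−0.055), Syn1 (−0.033) and Sox9 (−0.0082) reversed, as did Syn1 with the digit as a term (−0.0097). Of the other values of named genes 1882 kept their call and 449 lost it without a change of sign, and 1187 of the list medians moved by less than the spread while 43 moved more. The cause of each change was not tested. The block gave no value between control sets, and the fit of fed libraries none for fasted mice. Depth limits genes near 1 CPM most.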

Other observations

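Markers of neighbouring tissues and other cells not described above gave 0 calls by edgeR in fed mice: thalamus and cortex (10 tested, median 0.15), mammillary body (7 tested, 0.04), pituitary (7 tested, 0.00), blood (5 tested, 0.01) and sex-linked genes (4 tested, all on the Y chromosome, −0.07). The cortical gene Tbr1 stood at 0.59 and Rora, a marker of thalamus that is also a clock gene, at 0.26, without passing the test. The summed level of thalamus and cortex markers was 1297 to 1558 CPM in the S662D libraries with the digit, 1178 to 1243 CPM in those without it and 1143 to 1321 CPM in controls. Cold-inducible Rbm3 and Cirbp, whose transcripts rise as temperature falls, stood at −0.29 and −0.15, and the metallothionein Mt1 at −0.27, none past the threshold. The melanin-concentrating hormone gene Pmch and the orexin gene Hcrt, short of the threshold in fed mice, were at −0.39 and −0.31 in fasted mice, with adjusted p in edgeR's test of 0.0535 and 0.0660.

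Calls were spread over the chromosomes, with 3.26% of tested genes called on chromosome 16 and 6.12% on chromosome 18, and 4.64% on chromosome 1, which holds Per2. Of the 31 genes called with each control set, 5 lie on chromosome 10 (Fabp7, Mthfd1l, Plk5, Glt8d2 and Cry1), which holds 822 of the 18063 tested genes. Another 4 lie on chromosome 9 (1042 tested) and 4 on chromosome 11 (1365 tested). The 4 on chromosome 11 form adjacent pairs in the list. BC030499 lies beside Spag5, both lower. The other pair is Gpr179 (97332109 to 97352077), higher, and E130012A19Rik (97627389 to 97629702), lower.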
